A study of Mus musculus with 4 samples.

Results

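The genes described here are the Wnt ligands (*Wnt*), the Frizzled receptors (*Fzd*), the co-receptors *Lrp5* and *Lrp6*, the R-spondin receptors *Lgr4* to *Lgr6*, the secreted antagonists (*Sfrp*, *Dkk* and *Wif1*) and the intracellular scaffolds *Axin1* and *Axin2*. They were taken by gene symbol, as every protein-coding gene of these families, with no expression value in the rule. This gave 45 of the 21970 protein-coding genes and 56748 genes in all that the expression table lists. The set itself was chosen with earlier results of these data known. RNA was sequenced from whole mouse lenses, with 2 libraries from *Fsp1-cre;Pdgfrb*+/D849V mice (mutant) and 2 from *Fsp1-cre;Pdgfrb*+/+ mice (control), aged 10 to 12 days. PDGFRβ is a receptor tyrosine kinase, and D849V is an activating change knocked into its endogenous locus, which *Fsp1-cre* switches on only in cells that have expressed the Cre. All mice were on the FVB/N background in a colony that also carried a Cre-dependent tdTomato reporter. The study's methods describe the control pools more broadly than the labels do, as also holding mice without Cre, with either a wild-type *Pdgfrb* or a silent D849V allele. Each library came from lenses pooled over several mice, so a library, not a mouse, is the unit of every comparison, and no label says which lens cells the Cre had reached.

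Wnt proteins are secreted lipid-modified ligands that bind Frizzled receptors. Together with LRP5 or LRP6 they stop the Axin-containing destruction complex from removing β-catenin, which then acts with TCF/LEF factors on target genes, while other Wnts act through Frizzled and Dishevelled on cell polarity. Sfrp and Wif proteins bind Wnts outside the cell, most Dkk proteins bind the LRP co-receptors, and Lgr receptors bind R-spondins, which raise the amount of Frizzled at the membrane. In the lens, Wnt/β-catenin signalling is known mainly from the epithelium, and Frizzled-dependent polarity signalling from the orderly elongation of fibre cells.

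Levels are given as FPKM, fragments per kilobase of gene length scaled to library size, which sets genes of different length on one scale. The library size behind the deposited FPKM was 0.944 to 1.05 times the reads on genes. The libraries held 18561682 to 18878768 reads on genes, as recovered from the FPKM, and 58.6 to 62.9% of these were on crystallin genes, which left 45082 to 54883 reads per library on the 45 genes. Lens markers were abundant, with the fibre crystallin *Cryaa* at 66165 to 74239 FPKM and the epithelial transcription factor *Foxe3* at 103 to 122 FPKM. The fibre membrane gene *Lim2* was listed at 0 in all 4 libraries, so a listed 0 in this table is not evidence that a gene was silent. *Xist* was at 7.62 and 13.1 FPKM in mutant replicates 1 and 2 and at 15.6 and 5.56 FPKM in control replicates 1 and 2, so this transcript of the inactive X chromosome was lowest in mutant replicate 1 and control replicate 2. In these whole-tissue libraries, fewer cells of a type and less RNA per cell cannot be told apart.

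Of the 45 genes, 14 had a mean of at least 1 FPKM, 9 lay between 0.1 and 1 FPKM, 14 had reads but a mean under 0.1 FPKM, and 8 were listed at 0 in every library. The 23 genes with a mean of at least 0.1 FPKM were tested. Of the 22 others none had more than 11 reads in a library.

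Few ligands were detected at a substantial level. *Wnt7b*, which signals through β-catenin in several epithelia, led the 19 Wnt genes with 80.2 and 89.4 FPKM in the mutant libraries and 92.1 and 98.1 FPKM in the control libraries. It is gene ENSMUSG00000022382 at chr15:85419638-85466674 on the minus strand (build mm39). Its close relative *Wnt7a* was next, with 19.6 and 18.6 FPKM in mutant and 21.0 and 19.4 FPKM in control lenses. *Wnt5b*, a ligand best known from β-catenin-independent signalling (ENSMUSG00000030170, chr6:119409492-119521308, minus strand), had 11.5 and 12.0 FPKM in mutant and 13.8 and 14.2 FPKM in control lenses. *Wnt7b* made up 71.0 to 73.5% of the summed Wnt FPKM of a library, *Wnt7a* 14.5 to 17.3% and *Wnt5b* 9.87 to 10.7%, and together they made up 98.2 to 98.7%. *Wnt9a* lay between 0.674 and 1.27 FPKM, *Wnt5a* between 0.480 and 0.809 FPKM and *Wnt3* between 0.117 and 0.310 FPKM, and 7 Wnt genes, *Wnt1*, *Wnt2*, *Wnt3a*, *Wnt6*, *Wnt8a*, *Wnt10a* and *Wnt10b*, were listed at 0. *Wnt2b* had 7 and 3 reads in mutant and 11 and 8 in control lenses, and the other 5 Wnt genes (*Wnt4*, *Wnt8b*, *Wnt9b*, *Wnt11* and *Wnt16*) had 0 to 5 reads in a library. The Wnt signal measured in these lenses was thus mostly that of 3 genes.

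Promoter sequence was found for 29 of the 45 genes in the RefSeq table (build GRCm38.p6), which covers 250 bases before the most upstream start. It is shown for *Wnt7a* and *Wnt5b*, ligands that make up most of the Wnt signal together with *Wnt7b*, and for *Axin2*, the feedback inhibitor widely read as a target of β-catenin. They run 5′ to 3′ on the gene's strand, with each CpG in capitals, at chr6:91411354-91411603 for *Wnt7a*, chr6:119544348-119544597 for *Wnt5b* (both minus strand) and chr11:108920099-108920348 for *Axin2* (plus strand).
Wnt7a: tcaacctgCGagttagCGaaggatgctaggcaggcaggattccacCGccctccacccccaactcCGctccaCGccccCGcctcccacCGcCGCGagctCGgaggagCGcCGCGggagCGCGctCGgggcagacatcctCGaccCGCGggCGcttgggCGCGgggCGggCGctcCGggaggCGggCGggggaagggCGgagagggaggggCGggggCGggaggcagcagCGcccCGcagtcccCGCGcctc
Wnt5b: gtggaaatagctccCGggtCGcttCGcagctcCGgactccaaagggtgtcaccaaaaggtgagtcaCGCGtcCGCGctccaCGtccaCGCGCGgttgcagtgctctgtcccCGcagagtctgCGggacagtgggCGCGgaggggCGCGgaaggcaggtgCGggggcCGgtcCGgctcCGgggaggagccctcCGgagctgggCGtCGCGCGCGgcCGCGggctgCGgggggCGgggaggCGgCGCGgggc
Axin2: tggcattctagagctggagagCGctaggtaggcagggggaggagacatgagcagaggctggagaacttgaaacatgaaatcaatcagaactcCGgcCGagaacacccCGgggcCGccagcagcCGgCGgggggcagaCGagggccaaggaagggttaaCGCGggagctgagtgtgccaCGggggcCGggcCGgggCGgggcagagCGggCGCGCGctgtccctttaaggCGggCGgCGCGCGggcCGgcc
The *Wnt7a* window held 34 CpG, the *Wnt5b* window 35 and the *Axin2* window 24, and 3.53%, 2.97% and 12.0% of all 32851 windows of this kind held as many. Their GC content was 77.6%, 75.2% and 69.2%, against a median of 52.4% over all windows. The TCF/LEF core CTTTGAA, its variant CTTTGAT, the related CTTTGTA and the fourth form searched, CTTTGTT, were found on neither strand of the 3 windows, and 14.8% of all windows hold at least 1 of them. A missing core says only that these letters are not in the window.

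*Dkk3* and *Sfrp1*, of the families listed here as antagonists, were the most abundant genes of the set. *Dkk3*, a divergent Dkk protein that is not a typical LRP inhibitor (ENSMUSG00000030772, chr7:111715224-111758264), had 388 and 416 FPKM in mutant and 432 and 411 FPKM in control lenses, rank 50 among all listed genes, and took 49.8 to 51.5% of the reads on the 45 genes. *Sfrp1*, a secreted Frizzled-like protein that binds Wnts (ENSMUSG00000031548, chr8:23901518-23939648), followed with 136 and 144 FPKM in mutant and 145 and 147 FPKM in control lenses, rank 130. Other members of these families were near the limit of detection, with *Dkk1* at 0.0424 to 0.254 FPKM, *Wif1* at 0.0447 to 0.253 FPKM, *Dkk2* at 7 and 6 reads in mutant and 7 and 1 in control lenses, *Sfrp4* at 1 to 4 reads, *Sfrp2* and *Sfrp5* at 0 to 1, and *Dkk4* listed at 0.

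Among receptors, *Fzd1* and *Fzd6* carried 70.6 to 74.4% of the summed Frizzled FPKM. *Fzd1* had 4.50 and 7.63 FPKM in mutant and 7.30 and 6.18 FPKM in control lenses, and *Fzd6*, a receptor known from planar cell polarity, had 4.35 and 5.0 against 5.37 and 5.52 FPKM. *Fzd2* had 1.06 and 1.52 FPKM in mutant and 1.38 and 0.963 FPKM in control lenses, *Fzd7* had 0.804 and 1.16 against 1.68 and 1.13 FPKM, and *Fzd3*, which guides axons and cell polarity, had 0.920 and 1.09 against 1.11 and 1.19 FPKM. *Fzd4*, the receptor of norrin in vessels, lay between 0.267 and 0.387 FPKM, *Fzd5* between 0.146 and 0.223 FPKM and *Fzd8* between 0.128 and 0.370 FPKM, and *Fzd9* had at most 3 reads in a library. Of the co-receptors, *Lrp6* had 0.927 to 1.5 FPKM and *Lrp5* 0.0997 to 0.190 FPKM. *Lgr4* had 5.53 and 5.28 FPKM in mutant and 5.35 and 5.89 FPKM in control lenses, whereas *Lgr5* had at most 3 reads and *Lgr6* at most 5 reads in a library. *Axin1*, a scaffold of the destruction complex, was at 5.77 and 5.75 FPKM in mutant and 5.63 and 5.53 FPKM in control lenses. *Axin2* was at 0.958 and 1.06 against 1.03 and 1.10 FPKM.

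The order *Dkk3*, *Sfrp1*, *Wnt7b*, *Wnt7a*, *Wnt5b*, *Fzd1* held in each of the 4 libraries, and the ranges of neighbours in it did not overlap. The mean level of *Dkk3* was 2.88 times that of *Sfrp1*, and that of *Wnt7b* was 4.58 times that of *Wnt7a*. *Fzd1*, *Axin1*, *Lgr4* and *Fzd6* came next with overlapping ranges, so their order is not resolved by these libraries. Summed over the family, the Wnt genes had 113 and 122 FPKM in mutant and 129 and 133 FPKM in control lenses, and the Frizzled genes 12.3 and 17.1 against 18.0 and 15.7 FPKM.

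**Figure D1:**
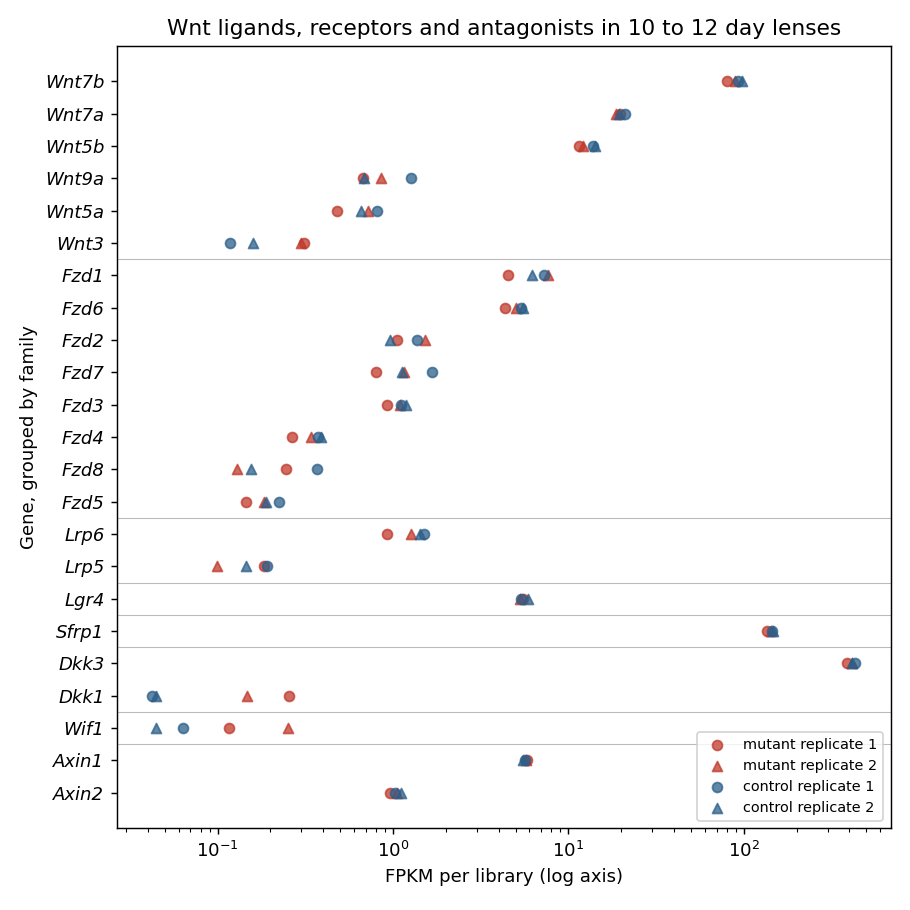
FPKM of the 23 tested genes on a log axis, grouped by family, with 1 point per library (2 mutant, 2 control). *Dkk3*, *Sfrp1*, *Wnt7b*, *Wnt7a* and *Wnt5b* stand above 10 FPKM in all 4 libraries, and the mutant and control points of most genes lie close together or intermingle.

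The comparison of mutant with control lenses asked whether the mutant genotype came with a change of Wnt components. The study describes Cre reporter activity in the lens epithelium at later ages than these, and assumes that the mutant receptor is expressed. None of the 23 tested genes passed an adjusted p of 0.05 in limma's moderated test, where 6 of 15997 genes did (0.0375%), and the members' adjusted p-values ran from 0.783 to 0.954. At an unadjusted p under 0.05 there was 1 member, *Wnt5b*, which is 4.35% of the members tested against 6.31% of all genes tested. In the lower direction this was 1 member against 2.92% of all genes, and in the higher direction 0 members against 3.39%. A precision-weighted fit on the recovered reads (voom) gave no member at an adjusted p under 0.05 either, against 0.0875% of all genes, and 3 members (*Wnt5b*, *Lrp6* and *Dkk1*) at an unadjusted p under 0.05, against 7.43% of all genes, of which *Dkk1* passed the filter on low values only through the mutant libraries. With 2 libraries a group these intervals are wide, and a p that misses the threshold does not show that a level was the same.

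**Figure D2:**
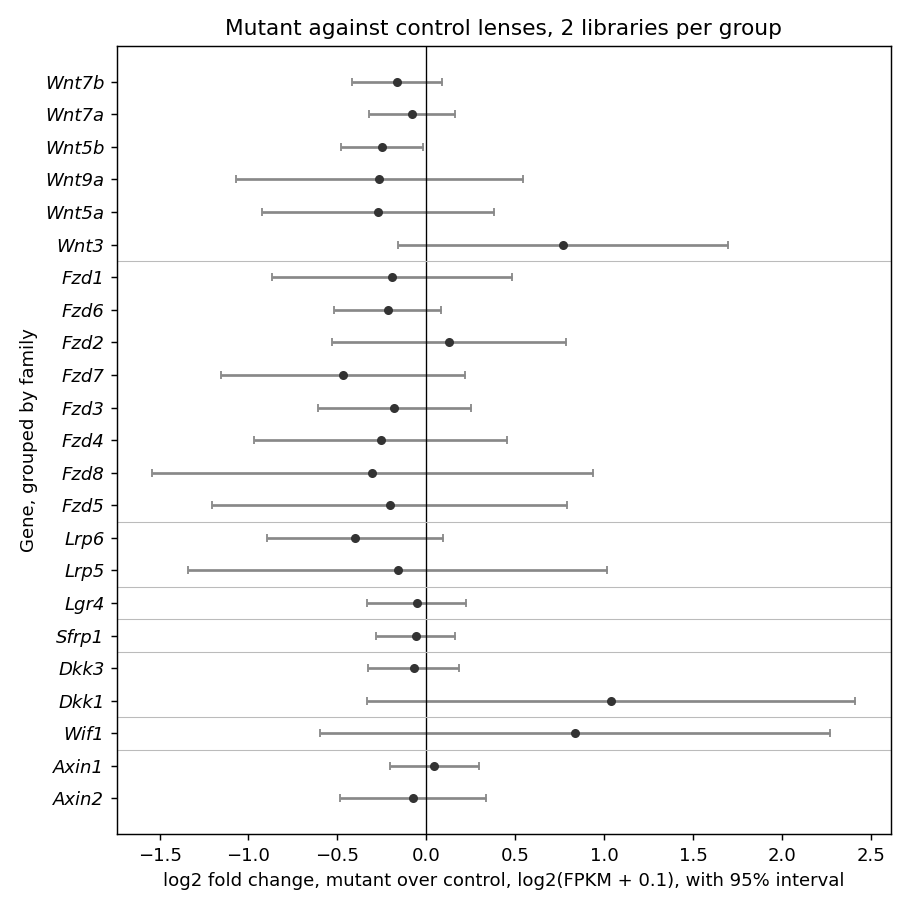
Difference between mutant and control lenses for each of the 23 tested genes, as the log2 fold change on the log2(FPKM + 0.1) scale (x axis) with its 95% interval from the moderated test. The interval of *Wnt5b* alone leaves out 0, before any adjustment, and the intervals of low genes such as *Dkk1*, *Wif1* and *Fzd8* are the widest.

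*Wnt5b* was lower in both mutant libraries than in both control libraries, with means of 11.8 ± 0.374 and 14.0 ± 0.277 FPKM (SD, n = 2 each), from 545 and 626 reads in mutant and 714 and 696 in control lenses. Its log2 fold change came to -0.25 (SE 0.09, 95% interval -0.48 to -0.02), with an unadjusted p of 0.0384 and an adjusted p of 0.783 in limma. Leaving out a library moved the fold change between -0.28 and -0.22, and scaling to total reads gave an unadjusted p of 0.0649. *Fbxl14*, which lies inside *Wnt5b* on the opposite strand, was at 1.99 and 2.03 FPKM in mutant and 3.44 and 2.42 FPKM in control lenses (log2 fold change -0.50, adjusted p = 0.788 in limma). Whether the counting used strand is not given in the sources used here, so reads from overlapping stretches of these genes cannot be told apart.

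The leading ligand *Wnt7b* was also lower in both mutant libraries, from 7001 and 8576 reads against 8770 and 8856, with means of 84.8 ± 6.54 and 95.1 ± 4.25 FPKM (SD, n = 2 each) and a log2 fold change of -0.17 (SE 0.10, interval -0.42 to 0.09, adjusted p = 0.810 in limma). Without mutant replicate 1 its fold change was -0.09. *AU022754*, on the opposite strand over the first part of *Wnt7b*, had 116 and 115 reads in mutant and 93 and 86 in control lenses. For *Wnt7a*, mutant and control levels overlapped, and the interval of the log2 fold change was -0.32 to 0.16. *Wnt9a* and *Wnt5a* had log2 fold changes of -0.26 (SE 0.32) and -0.27 (SE 0.26), with overlapping groups. Without control replicate 1 the fold change of *Wnt9a* was 0.14, and without mutant replicate 1 that of *Wnt5a* was -0.02.

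*Wnt3*, a ligand of the β-catenin branch, was the only Wnt gene tested with a higher mean in the mutant. It had 17 and 18 reads in mutant and 7 and 9 in control lenses. With an exact 95% counting interval of 1.19 to 4.29 that leaves out any spread between pools, its library-size-scaled ratio was 2.22. Its log2 fold change was 0.77 (SE 0.36, interval -0.16 to 1.70, adjusted p = 0.809 in limma), so the difference was within the spread that the fit allows at this depth.

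Of the 8 Frizzled genes tested, 7 had a lower mean in the mutant, against 49.3% of all genes tested. The 8 log2 fold changes ran from -0.47 to 0.13, with a median of -0.21. No Frizzled gene had an unadjusted p under 0.05 in limma or voom, and they share the same 4 libraries. *Fzd6* was lower in both mutant libraries, from 374 and 472 reads against 503 and 490, at -0.22 (SE 0.12, interval -0.52 to 0.09, adjusted p = 0.810 in limma). *Fzd7* had the largest negative value, -0.47 (SE 0.27), but its lower control library, at 1.13 FPKM, was below its higher mutant library, at 1.16 FPKM. Mutant replicate 1 had the lowest *Fzd6*, *Fzd1*, *Fzd7*, *Fzd3*, *Fzd4* and *Fzd5* of the 4 libraries. Without it the fold change of *Fzd6* was -0.12, that of *Fzd7* was -0.23 (-0.20 without control replicate 1) and that of *Fzd1* turned from -0.19 to 0.18. *Fzd10* had 0 reads in both mutant libraries and 8 and 1 in the control libraries, too few to test.

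*Lrp6*, the co-receptor needed for most β-catenin signalling (ENSMUSG00000030201, chr6:134423439-134543928), had 226 and 339 reads in mutant and 398 and 360 in control lenses, which is 0.927 and 1.27 FPKM against 1.5 and 1.43 FPKM. Both mutant libraries were below both control libraries, with mutant replicate 1 the farthest away. Its log2 fold change was -0.40 (SE 0.19, interval -0.89 to 0.10, adjusted p = 0.810 in limma), -0.19 without mutant replicate 1 and -0.60 without mutant replicate 2. The voom fit gave -0.43 with an unadjusted p of 0.0111 and an adjusted p of 0.488. *Lrp5* groups overlapped (log2 fold change -0.16, SE 0.46). *Lgr4*, at -0.05 (SE 0.11), and *Axin1*, at 0.05 (SE 0.10), were the receptor and the scaffold with the smallest differences. Their 95% intervals were -0.33 to 0.23 and -0.21 to 0.30.

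*Dkk1*, an inhibitor that binds LRP5 and LRP6 and is itself a known β-catenin target (ENSMUSG00000024868, chr19:30523263-30527065), had 11 and 7 reads in mutant and 2 and 2 in control lenses. Both mutant libraries were above both control libraries. The gene reached the mean of 0.1 FPKM needed for testing only through the mutant libraries (means 0.201 and 0.0435 FPKM), so its higher direction is partly set by that filter and its values are a description. Scaled to library size, the ratio of summed reads was 4.56, with an exact 95% counting interval of 1.5 to 18.5. That interval leaves out any spread between pools, and neither it nor the p-values that follow can test the direction of *Dkk1*. Its log2 fold change was 1.04 (SE 0.54, interval -0.33 to 2.41, adjusted p = 0.810 in limma) on a scale whose added 0.1 FPKM shrinks differences at this level, and voom gave 1.90 with an unadjusted p of 0.0491 and an adjusted p of 0.671.

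*Wif1*, which binds Wnts directly, had 5 and 12 reads in mutant and 3 and 2 in control lenses. Its library-size-scaled ratio was 3.44, with a counting interval of 1.22 to 11.9. Its log2 fold change was 0.84 (SE 0.56, adjusted p = 0.810 in limma), or 0.49 without mutant replicate 2. *Wif1* too reached 0.1 FPKM only through the mutant libraries (means 0.184 and 0.0541 FPKM), so the same limits hold for its direction, its counting interval and its p. The 6 retinal markers summed to 0.292 and 2.27 FPKM in the mutant and 0.868 and 0.464 FPKM in the control libraries, highest in mutant replicate 2 as *Wif1* was, and their part in the result was not tested. The abundant *Dkk3* and *Sfrp1* showed small differences, with log2 fold changes of -0.07 (SE 0.10, interval -0.33 to 0.18) for *Dkk3* and -0.06 (SE 0.09, interval -0.28 to 0.16) for *Sfrp1*.

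**Figure D3:**
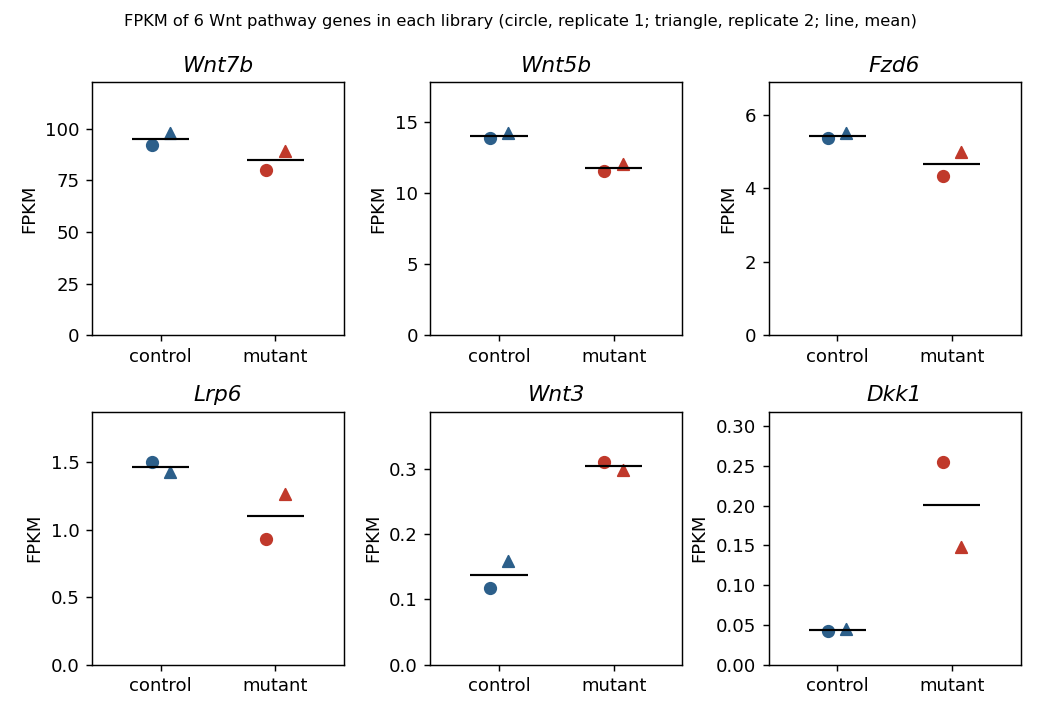
FPKM by library for 6 of the genes described, each panel with its own linear axis from 0, with circles for replicate 1, triangles for replicate 2 and a line at each group mean (2 control and 2 mutant libraries). The mutant points of *Wnt7b*, *Wnt5b*, *Fzd6* and *Lrp6* lie below both control points, and those of *Dkk1* and *Wnt3* lie above them. Only genes with groups that do not overlap are shown, as 18.3% of all genes tested were below and 18.2% above. *Dkk1* passed the filter only through its mutant libraries.

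Across the 23 genes, 18 had a lower mean in the mutant (78.3%), against 49.3% of all genes tested, and their median log2 fold change was -0.17 against 0.00 for all genes. These genes share the same 4 libraries, so they are not independent observations of the mutant. The set was also chosen with earlier results of these data known. In 8 genes (*Sfrp1*, *Wnt7b*, *Wnt5b*, *Fzd6*, *Lrp6*, *Fzd3*, *Fzd4* and *Fzd5*) both mutant libraries were below both control libraries, which is 34.8% of the members against 18.3% of all genes tested. In 4 genes (*Axin1*, *Wnt3*, *Dkk1* and *Wif1*) both were above, which is 17.4% against 18.2%. Of these, *Dkk1* and *Wif1* were tested only because of their mutant values. Among the 21 members with a mean of at least 0.1 FPKM in both groups, 2 had both mutant libraries above and 18 had a lower mean in the mutant. Mutant replicate 1 was the lowest library in 14 of the 23 genes (60.9%), against 29.8% of all genes. Without mutant replicate 1 the median was -0.09 with 17 genes lower, and without control replicate 1 it was -0.07 with 16 lower.

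The 5 lens epithelial markers summed to 124 FPKM in mutant replicate 1 and to 139 to 148 FPKM in the other libraries, a sum that is mostly *Foxe3*. Without *Foxe3* the sum was 20.4 FPKM in mutant replicate 1 and 24.0 to 29.2 FPKM in the others. Mutant replicate 1 was the lowest library in 4 of the 5 markers (*Foxe3*, *Cdh1*, *Gja1* and *Pdgfra*), and control replicate 2 was the lowest in *Pax6*. Mutant replicate 1 was also the library with the largest share of reads on crystallin genes, 62.9%. The part of these values in the members' direction was not tested. Of other cell types, the 6 endothelial markers summed to 3.11 and 2.34 FPKM in mutant and 3.84 and 3.56 FPKM in control lenses. In 6 of 6 the mean was lower in the mutant, against 49.3% of all genes tested. Only *Tie1* had groups that did not overlap, *Kdr* was nearly equal (log2 fold change -0.01), and none had an unadjusted p under 0.05 in limma. *Fzd4* also had a lower mean, and a link with these markers was not tested. Macrophage markers summed to 1.47 and 1.53 FPKM in mutant and 0.686 and 0.489 FPKM in control lenses. Both of those that could be tested, *C1qa* and *Cd68*, were higher in the mutant at an unadjusted p under 0.05 in limma, as were 3.39% of all genes. *C1qa* had 19 and 13 reads in mutant and 9 and 5 in control lenses, and *Cd68* 6 and 16 against 4 and 2. Their adjusted p was 0.761 and 0.788 in limma, and their unadjusted p was 0.0922 and 0.0671 in voom. The 10 mural and mesenchymal markers summed to 17.3 and 15.2 against 15.4 and 16.4 FPKM, mostly *Acta2*, and 2 of the 5 tested had an unadjusted p under 0.05 in limma, in opposite directions. The pericyte gene *Rgs5* was at 3.43 and 2.47 against 4.60 and 4.30 FPKM, and the collagen gene *Col1a1* at 0.239 and 0.311 against 0.0470 and 0.0744 FPKM, tested only because of its mutant values. Their adjusted p was 0.737 and 0.785 in limma, where 6.31% of all genes had an unadjusted p under 0.05.

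Downstream and alongside these genes, a list of 59 further Wnt pathway genes was described, of which 50 were tested. None passed an adjusted p of 0.05 in limma or voom (lowest 0.732 in limma). Of the 50, 28 had a lower and 22 a higher mean in the mutant, where 49.3% of all genes tested had a lower mean. Their median log2 fold change was -0.01. β-Catenin itself (*Ctnnb1*) had 60.7 and 67.5 FPKM in mutant and 64.7 and 68.3 FPKM in control lenses (log2 fold change -0.05, SE 0.10, adjusted p = 0.919 in limma). Of the 5 target genes tested, 3 were lower and 2 higher, with the cell cycle gene *Ccnd1* at 5.40 and 7.67 FPKM in mutant and 10.8 and 8.21 FPKM in control lenses (log2 fold change -0.54, SE 0.22, adjusted p = 0.800 in limma). *Axin2*, the member most used as a readout of β-catenin activity, had overlapping groups and an interval of -0.49 to 0.34.

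The 1 further gene with an unadjusted p under 0.05 in limma was *Celsr2*, a cadherin of the planar polarity system, at 5.04 and 5.35 FPKM in mutant and 7.21 and 6.42 FPKM in control lenses (log2 fold change -0.38, SE 0.11, adjusted p = 0.732 in limma from an unadjusted p of 0.0189). In voom 4 had an unadjusted p under 0.05, *Ccnd1*, *Celsr2*, *Nkd2* and *Apcdd1*. This is 2% of the 50 genes in limma against 6.31% of all genes, and 8% in voom against 7.43%. Among the 13 cytoplasmic genes, which include the Dishevelled, GSK3 and Apc genes, 11 had lower means, against 49.3% of all genes tested. Their log2 fold changes were small, from -0.23 for *Tnks* to 0.04 for *Dvl1*, and *Dvl1* and *Dvl3* were the genes with higher means. None of the 13 had an unadjusted p under 0.05 in limma, and they share the same 4 libraries. Among the 9 nuclear genes 6 had higher means, the T-cell factor *Tcf7* with the largest difference (log2 fold change 0.67, SE 0.33). None of the 9 had an unadjusted p under 0.05 in limma. Of the R-spondins, ligands of the Lgr receptors, *Rspo1* had 23.8 and 20.8 FPKM in mutant and 19.8 and 24.4 FPKM in control lenses, and *Rspo2*, *Rspo3* and *Rspo4* were listed at 0. *Wls*, which carries Wnt proteins to the cell surface, was at 7.58 to 8.0 FPKM in all 4 libraries.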

How the data were processed

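The authors deposited FPKM for 4 libraries, made by a sequencing company with HISAT2 for alignment and featureCounts for counting (build mm39 per the submitters' processing notes). The authors tested differences with DESeq2, whose results were not used here. FPKM times gene length came out at whole reads for 100% of values (tolerance 0.02 reads). Libraries were rescaled by median ratios, which came to 1.006 in each library and so changed nothing between libraries. The 15997 genes with a mean of at least 0.1 FPKM were tested on log2(FPKM + 0.1), mutant against control. The test was limma 3.58.1 (lmFit and eBayes with trend, R 4.3.3), with Benjamini-Hochberg adjustment over all these genes. Intervals use the moderated test's degrees of freedom. The added 0.1 understates changes of low genes. The code was tested on simulated data. By rule, members with a mean of at least 1 FPKM are named with every library's FPKM, those from 0.1 FPKM with their range, the rest with their reads, and, of other pathway genes, *Ctnnb1* and those with an unadjusted p under 0.05, while *Ccnd1*, *Tcf7*, *Rspo1* and *Wls* were chosen after their values were seen. The members and lists were chosen with earlier results of these data known. Alternatives changed the pseudocount, filter, scaling, trend, model (voom on recovered reads), block and libraries. The p-values set a difference against a spread between pools that the moderated tests estimate partly from other genes. They do not measure the spread of 1 gene alone. Counting intervals cover counting error only.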

Additional observations from a re-analysis of the deposited data

How the results depend on the processing

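The count of members with an adjusted p under 0.05 was 0 under all 15 alternatives, as it was for the 59 further pathway genes, and the lowest adjusted p of any member was 0.409. Over all genes it was 6, and 2 with a pseudocount of 1 or of 0.01, 2 with a filter at 1 FPKM, 1 with no filter, 2 without the trend, 14 with voom, 1 with the covariate that parts mutant replicate 1 and control replicate 2 from the others, and 0 with any library left out (0 to 0). At an unadjusted p under 0.05, all genes gave 617 with the filter at 1 FPKM against 1009. Members gave 2 with no filter, 0 when scaled to total reads, 2 without the trend, 3 with voom and 0 to 4 with a library left out, against 1. Pathway genes gave 2 with the filter at 1 FPKM, with no filter, when scaled to reads outside crystallin genes and with the covariate, 0 without the trend, 4 with voom and 0 to 1 with a library left out, against 1. The replicate numbers are shared by the groups but did not pair the libraries (correlation of same-numbered deviations -0.0051, and -0.113 from 1 FPKM upward). With the replicate block 2 genes in all passed the adjusted threshold and 0 members the unadjusted one. The crossed pairing is the same fit as the covariate, with 1 gene in all.

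The p of *Wnt5b* ran from 0.0214 to 0.132 before and from 0.537 to 0.895 after adjustment. Of 336 member fold changes under alternatives 329 kept their direction and 7 reversed, all with a library left out, in *Fzd1* (-0.57 to 0.18), *Lgr4* (-0.12 to 0.014), *Fzd2* (-0.11 to 0.37), *Wnt9a* (-0.67 to 0.14), *Fzd8* (-0.75 to 0.14) and *Lrp5* (-0.42 to 0.093). The 18 lower members were 18 under each of 3 scalings, of which leaving out the rescaling repeats the main fit. A library left alone in its group is assumed to vary like the others. The cause of these changes was not tested. Depth limits what 22 members can show, since 3 reads of a member listed at 0 are worth 0.0451 to 0.128 FPKM.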
